A study of Homo sapiens with 10 samples.

Results

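The S100 calcium-binding protein genes described here are the 10 rows of the expression tables whose symbol is S100A2, S100A4, S100A6, S100A7, S100A8, S100A9, S100A10, S100A11, S100A14 or S100P, out of 23426 genes. They were picked by symbol, and all 10 were present in every sample and passed the filter on low values. RNA sequencing was performed on 2 human breast cancer cell lines, MDA-MB-468 (a basal-type line) and ZR75-1 (a luminal-type line), each exposed for 6 h to the vehicle DMSO or to 1 µM PKC412, a staurosporine-derived multi-target kinase inhibitor also known as midostaurin. The labels give 2 DMSO and 3 PKC412 samples per line, which makes 10 samples in 4 groups. The study's methods speak of triplicates, and 2 samples with DMSO were analysed here for either line. The labels name no engineered change in either line, but the lines come from different tumours and differ in genotype, and each tumour type is represented by 1 line. The comparisons address how S100 expression differs between a basal and a luminal line and whether short exposure to the inhibitor changes it in either. Nothing in the labels says that the samples of a group are separate cultures, so p-values measure the spread between these samples, which may be technical.

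S100 proteins are small EF-hand proteins that bind calcium, mostly as dimers, and then expose a surface that docks onto partner proteins such as annexins. Some work inside the cell on the cytoskeleton and membranes, while others are secreted and act as alarm signals on receptors such as RAGE and TLR4. Most of their genes lie side by side on chromosome 1 next to the genes of the epidermal cornified envelope, and several are common in tumours of epithelial origin, S100A4 as a gene linked to motility and to mesenchymal features and S100A8 with S100A9 as the 2 chains of calprotectin.

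The promoters of 3 members are shown in full because these genes carry the results that follow: S100A4, with the widest gap between the lines towards MDA-MB-468, S100A9, the most abundant member in ZR75-1, and S100P, the only member whose values lay above DMSO in ZR75-1 after PKC412. The sequences are RefSeq windows on GRCh38.p14, each 5′ to 3′ on the gene's strand from 250 bases before to 50 after the annotated start, with the TATA box letters TATAAA in capitals.
S100A4 (chr1:153545757-153546056, minus strand): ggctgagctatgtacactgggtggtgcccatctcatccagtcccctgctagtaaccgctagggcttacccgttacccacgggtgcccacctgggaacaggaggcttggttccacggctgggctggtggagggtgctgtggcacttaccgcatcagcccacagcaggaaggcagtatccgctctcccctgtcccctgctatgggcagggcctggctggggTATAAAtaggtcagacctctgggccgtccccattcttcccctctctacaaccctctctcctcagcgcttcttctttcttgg
S100A9 (chr1:153357604-153357903, plus strand): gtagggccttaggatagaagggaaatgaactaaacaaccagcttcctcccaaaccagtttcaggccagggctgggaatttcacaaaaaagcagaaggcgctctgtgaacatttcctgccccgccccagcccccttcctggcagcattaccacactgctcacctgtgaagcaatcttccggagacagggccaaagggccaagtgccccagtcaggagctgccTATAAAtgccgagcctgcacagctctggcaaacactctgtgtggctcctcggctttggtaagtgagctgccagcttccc
S100P (chr4:6693628-6693927, plus strand): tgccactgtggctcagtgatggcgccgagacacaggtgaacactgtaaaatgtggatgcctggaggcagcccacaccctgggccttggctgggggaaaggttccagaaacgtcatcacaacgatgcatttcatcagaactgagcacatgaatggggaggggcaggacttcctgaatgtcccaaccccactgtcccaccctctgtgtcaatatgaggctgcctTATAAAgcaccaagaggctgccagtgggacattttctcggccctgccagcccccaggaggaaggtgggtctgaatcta
TATAAA began 31 bases before the start in S100A4, 29 bases before it in S100A9 and 28 bases before it in S100P. For 6 further members, the stretch from 40 bases before to 20 after the start is given for comparison, with the same letters, or, in S100A11, a match on the opposite strand to the C/EBP letters TTGCNNAA, in capitals. S100A8 has 3 annotated starts, and the one shown is the one with TATAAA near it. S100A2 has 2 annotated starts and TATAAA in neither window.
S100A7 (chr1:153460632-153460691, minus strand): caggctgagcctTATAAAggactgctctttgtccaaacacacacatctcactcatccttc
S100A8 (chr1:153391054-153391113, minus strand): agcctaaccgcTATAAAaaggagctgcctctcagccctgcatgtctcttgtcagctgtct
S100A6 (chr1:153535972-153536031, minus strand): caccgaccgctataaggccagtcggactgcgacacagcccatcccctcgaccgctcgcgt
S100A10 (chr1:151993840-151993899, minus strand): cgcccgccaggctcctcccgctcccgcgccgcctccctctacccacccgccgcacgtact
S100A11 (chr1:152036985-152037044, minus strand): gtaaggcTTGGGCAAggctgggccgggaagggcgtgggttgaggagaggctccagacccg
S100A14 (chr1:153616306-153616365, minus strand): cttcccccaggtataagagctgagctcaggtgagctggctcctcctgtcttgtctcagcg

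Thus 5 of the 10 members, S100A4, S100A7, S100A8, S100A9 and S100P, held TATAAA in at least 1 window on either strand. Counted by window, 6 of the members' 13 windows held it, against 11.5% of the 35116 promoter windows of the table. In 1 window of each of these 5 members it lay on the gene strand between 25 and 35 bases before the start. That placement was found in 2.17% of all windows, where the range was set after these members had been seen. The AP-1 letters TGANTCA, which read the same on both strands, occurred in 1 member, S100A2 (7.71% of all windows), and the C/EBP letters TTGCNNAA in 1 member, S100A11 (10.5%). The STAT letters TTCNNNGAA, present in 7.66% of windows, and the NF-kappaB motif (GGG, any 2 bases, then TTTCC), present in 1.91%, matched no member window, all searched on both strands. The TATAAA members were found on both sides of the comparison between the lines, since S100A4 was higher in MDA-MB-468 and S100A8 and S100A9 were higher in ZR75-1. These matches describe letters in a window only.

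Levels are given as FPKM, a fragment count divided by transcript length and by the total of mapped fragments, which allows levels of different genes to be set side by side. The FPKM of a sample summed to between 599228 and 835069, and the number of reads behind the values is unknown. Sample profiles correlated at 0.957 to 0.983 within a group (8 pairs, Pearson's r of log2 values across genes, which are not independent replicates), at 0.945 to 0.986 between treatments of one line (12 pairs) and at 0.849 to 0.899 between lines (25 pairs), so the ranges within groups and between treatments overlapped. The line labels were checked against marker genes. Of 8 basal markers, 7 were higher in MDA-MB-468 DMSO samples and 1, CDH3, was lower, and all 8 luminal markers were higher in ZR75-1.

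Several S100 genes, but not all, were among the most abundant transcripts of both lines. In MDA-MB-468, the 10 members together made up 3.18% to 3.43% of the summed FPKM with DMSO and 2.22% to 2.88% with PKC412, and in ZR75-1 2.38% to 2.83% and 2.01% to 2.77%. In these bulk samples, a level shared by all cells cannot be told apart from a higher level in fewer cells. The lines differed in which member dominated. S100A6 (calcyclin) alone supplied 38.9% to 44.1% of the members' FPKM in the 5 MDA-MB-468 samples but 8.46% to 11.3% in the 5 ZR75-1 samples, while S100A9 supplied 8.39% to 9.81% and 30.3% to 39.7%. Ranked among all 23426 genes, S100A6 stood between place 2 and place 5 in MDA-MB-468 samples and between place 61 and place 101 in ZR75-1 samples. S100A9 stood between place 6 and place 14 in ZR75-1 and between place 48 and place 67 in MDA-MB-468.

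In MDA-MB-468 with DMSO the order of mean FPKM ran S100A6, S100A11, S100A4, S100A9, S100A10, S100A7, S100A14, S100P, S100A8, S100A2, from 10788 ± 1111 (SD, n = 2) for S100A6 to 394 ± 48.8 (SD, n = 2) for S100A2. Only S100A11 and S100A4 overlapped with their neighbour in that order. In the PKC412 samples of the same line the samples of every neighbouring pair from S100A11 to S100A14 overlapped, and S100A6, S100A8 and S100A2 kept places apart from their neighbours. In ZR75-1 with DMSO the order ran S100A9, S100A8, S100A14, S100A6, S100A11, S100A7, S100A10, S100P, S100A4, S100A2, from 7513 ± 2008 (SD, n = 2) to 5.10 ± 1.52 (SD, n = 2). Neighbours overlapped there for S100A6 with S100A11 and for S100A10 with S100P. With PKC412, S100P moved up to the sixth place, where its samples overlapped with those of S100A6 and S100A7.

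**Figure D1:**
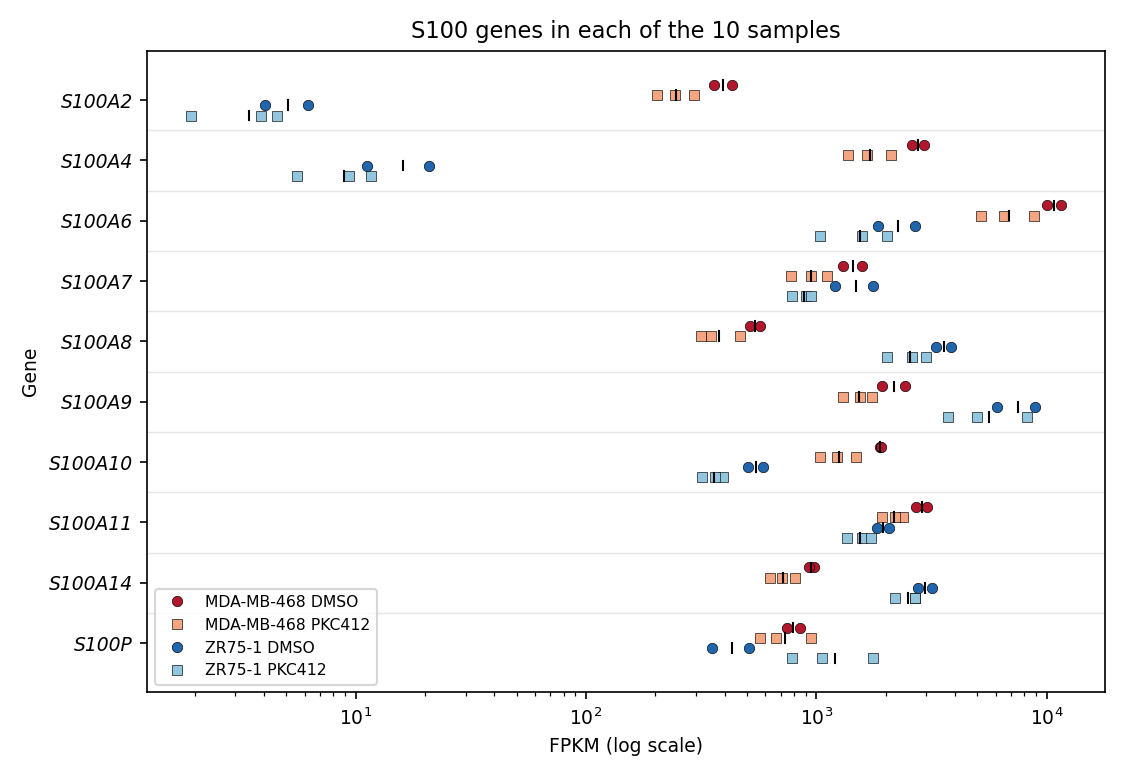
FPKM of the 10 S100 genes on a log axis, 1 point per sample, for MDA-MB-468 (red circles DMSO, orange squares PKC412) and ZR75-1 (dark blue circles DMSO, light blue squares PKC412), with black ticks at the group means. S100A2 and S100A4 lie apart by line over more than 1 step of the axis, S100A8, S100A9 and S100A14 lie farther right in ZR75-1, and PKC412 points mostly lie to the left of DMSO points of the same line except for S100P in ZR75-1.

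Between the lines with DMSO, 8 of the 10 members passed the test (adjusted p under 0.05, limma across 16071 genes), 5 higher in MDA-MB-468 and 3 higher in ZR75-1. The background was wide, since 42.4% of all genes tested passed, 26.5% higher and 15.9% lower in MDA-MB-468. The members' median log2 difference was 0.73 with DMSO and 0.29 with PKC412, against 0.11 and 0.19 over all genes tested. With PKC412 the same 8 members passed in the same directions, where 58.6% of all genes did, 37.0% as higher and 21.6% as lower in MDA-MB-468. Across both treatments, all 5 MDA-MB-468 samples lay above all 5 ZR75-1 samples for 4 members (S100A2, S100A4, S100A6 and S100A10), an order that 29.7% of all genes had, and below them for 3 members (S100A8, S100A9 and S100A14), as for 18.1% of all genes. The comparisons in DMSO and in PKC412 share no samples, but they share one estimate of the spread.

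The members higher in MDA-MB-468 were led by S100A4, also called metastasin, which acts on non-muscle myosin. Its FPKM in MDA-MB-468 was 2930 and 2595 with DMSO and 1370, 2109 and 1664 with PKC412. In ZR75-1 it was 20.8 and 11.2 with DMSO and 9.35, 11.7 and 5.58 with PKC412. Every MDA-MB-468 sample was far above every ZR75-1 sample, and the ratio of the DMSO means was 173. On the log2(FPKM + 1) scale the difference was 7.40 ± 0.37 (SE, adjusted p = 2.3e-06, limma).

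S100A2, an S100 gene of basal epithelial cells whose product is mostly nuclear, showed the same split. Its FPKM was 429 and 360 with DMSO and 204, 295 and 242 with PKC412 in MDA-MB-468, and 6.18 and 4.03 with DMSO and 3.89, 4.54 and 1.92 with PKC412 in ZR75-1. The lines did not overlap, and the log2 difference with DMSO was 6.04 ± 0.32 (SE, adjusted p = 3.2e-06, limma). S100A2 and S100A4 were each other's closest gene among all tested by Pearson correlation of log2(FPKM + 1) over the 10 samples (r = 0.9995), followed for S100A2 by GPX1 and GSTP1 and for S100A4 by GPX1 and UPP1. As the lines form 2 clusters, such correlations mostly restate the gap between them.

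S100A6, which binds annexins and the SUGT1 and CACYBP proteins, was high in both lines. Its FPKM was 11574 and 10002 with DMSO and 5183, 8829 and 6503 with PKC412 in MDA-MB-468, and 2672 and 1851 with DMSO and 1582, 2024 and 1039 with PKC412 in ZR75-1. The highest ZR75-1 sample was below the lowest MDA-MB-468 sample, and the log2 difference with DMSO was 2.27 ± 0.37 (SE, adjusted p = 0.0015, limma).

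S100A10 (p11), the partner of annexin A2 in a membrane complex that also binds plasminogen, had 1887 and 1907 FPKM with DMSO and 1042, 1481 and 1231 with PKC412 in MDA-MB-468. In ZR75-1 it had 584 and 507 with DMSO and 392, 320 and 363 with PKC412. Again the lines did not overlap, with a log2 difference of 1.80 ± 0.19 with DMSO (SE, adjusted p = 0.00012, limma).

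S100A11, or calgizzarin, a partner of annexin A1, was the smallest of the differences that passed. Its FPKM was 3033 and 2711 with DMSO and 1923, 2387 and 2203 with PKC412 in MDA-MB-468, and 2070 and 1842 with DMSO and 1576, 1734 and 1357 with PKC412 in ZR75-1. Within each treatment the lines were apart, but across treatments they overlapped. The log2 difference with DMSO was 0.55 ± 0.19 (SE, adjusted p = 0.043, limma) and with PKC412 0.48 ± 0.15 (SE, adjusted p = 0.026, limma). The DMSO call was lost without either DMSO sample of either line, without MDA-MB-468 PKC412 replicate 3 or without ZR75-1 PKC412 replicate 1 (adjusted p from 0.072 to 0.19). The PKC412 call was lost without MDA-MB-468 PKC412 replicate 2 or 3 or ZR75-1 PKC412 replicate 1 or 3 (adjusted p from 0.061 to 0.082), and after rescaling samples by median ratios both calls were lost, at adjusted p = 0.38 with DMSO and 0.35 with PKC412.

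The members higher in ZR75-1 were both chains of calprotectin, a protein that withholds zinc and manganese from microbes and is best known from neutrophils, and S100A14. S100A8 had 570 and 514 FPKM with DMSO and 316, 466 and 350 with PKC412 in MDA-MB-468. In ZR75-1 it had 3857 and 3322 with DMSO and 2610, 2999 and 2033 with PKC412. All ZR75-1 samples were above all MDA-MB-468 samples, and the log2 difference, MDA-MB-468 minus ZR75-1, was -2.72 ± 0.24 with DMSO (SE, adjusted p = 4.7e-05, limma).

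S100A9 had 2431 and 1929 FPKM with DMSO and 1306, 1744 and 1549 with PKC412 in MDA-MB-468, and 8933 and 6093 with DMSO and 5005, 8212 and 3725 with PKC412 in ZR75-1. The lines again did not overlap, although the ZR75-1 samples were spread widely, and the log2 difference was -1.77 ± 0.38 with DMSO (SE, adjusted p = 0.0057, limma). The 2 chains did not differ between the lines to the same degree. The ratio of S100A9 to S100A8 within a sample was 3.74 to 4.42 in the 5 MDA-MB-468 samples and 1.83 to 2.74 in the 5 ZR75-1 samples. The mean log2 ratio differed by 0.95 between the lines with both treatments pooled (exact permutation test over samples, two-sided, p = 0.0079, adjusted p = 0.016 over 2 ratios tested). That p is the lowest such a test of 5 against 5 samples can give, and any ratio without overlap between the lines reaches it. Put as a share, S100A8 was 24.7% ± 1.87 of S100A9 in MDA-MB-468, and 48.2% ± 8.03 in ZR75-1 (each SD, n = 5).

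S100A14, an epithelial member found at cell borders, had 973 and 933 FPKM with DMSO and 627, 807 and 707 with PKC412 in MDA-MB-468, and 3194 and 2756 with DMSO and 2672, 2679 and 2188 with PKC412 in ZR75-1. The lines were apart in every sample, by a log2 difference of -1.64 ± 0.18 with DMSO (SE, adjusted p = 0.00017, limma). S100A14 was the gene most like S100A8 over the 10 samples (r = 0.998).

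S100A7 and S100P did not pass between the lines. S100A7 (psoriasin), an antimicrobial S100 gene of inflamed skin, had 1573 and 1302 FPKM with DMSO and 780, 1115 and 953 with PKC412 in MDA-MB-468, and 1759 and 1201 with DMSO and 905, 952 and 783 with PKC412 in ZR75-1. The samples of the lines interleaved, and the log2 difference with DMSO was -0.02 with a 95% interval from -0.58 to 0.53. S100P, a secreted RAGE ligand first named for placenta, differed by 0.90 with DMSO, in the direction of MDA-MB-468 (95% interval from -0.002 to 1.80, adjusted p = 0.10, limma), and by -0.68 with PKC412 (95% interval from -1.41 to 0.06, adjusted p = 0.10, limma). Its DMSO value passed without ZR75-1 PKC412 replicate 2 (0.90, adjusted p = 0.042) and after rescaling samples to an equal FPKM sum (0.99, adjusted p = 0.029), and its PKC412 value passed without ZR75-1 PKC412 replicate 3 (-0.94, adjusted p = 0.031).

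**Figure D2:**
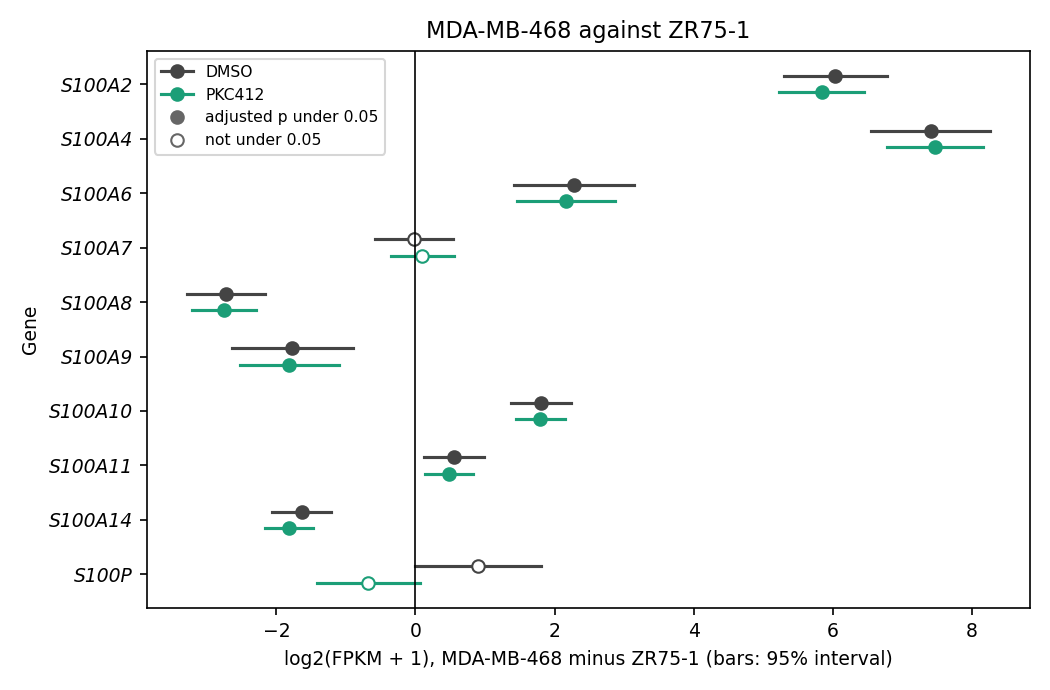
Log2(FPKM + 1) difference between the lines, MDA-MB-468 minus ZR75-1, for each S100 gene with DMSO (grey) and with PKC412 (green); bars are 95% intervals and filled points have an adjusted p under 0.05. S100A4, S100A2, S100A6, S100A10 and S100A11 lie above 0, S100A8, S100A9 and S100A14 below 0, and S100P lies at 0.90 with DMSO and at -0.68 with PKC412.

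One run of neighbouring genes on chromosome 1 shared its direction. By RefSeq, 17 S100 genes of the family lists lie on chromosome 1, with S100P on chromosome 4. S100A6, S100A5, S100A4, S100A3 and S100A2 follow each other there, and all 5 were higher in MDA-MB-468 with DMSO, S100A3 by 4.41 ± 0.20 (SE, adjusted p = 1.7e-06, limma) and S100A5 by 2.31 ± 0.26 (SE, adjusted p = 0.00018, limma) on the log2 scale. S100A3, an S100 gene of the hair cuticle, had 69.9 to 87.0 FPKM in MDA-MB-468 DMSO samples and 2.42 to 3.06 in ZR75-1 DMSO samples. On one side of this run come first S100A7, S100A7L2 (too low to be tested) and S100A7A, which did not pass, and then S100A8, S100A12 and S100A9, which were higher in ZR75-1. Next in the order, but well apart from S100A9, come S100A11 and S100A10. Their promoter windows begin at bases 152036955 and 151993810, and that of S100A9 at 153357604. Both were higher in MDA-MB-468, so the direction changed more than once along this order. S100A12 (calgranulin C) differed by -2.01 ± 0.27 on the log2 scale (SE, adjusted p = 0.00049, limma), with 0.88 and 1.33 FPKM in MDA-MB-468 and 6.94 and 7.99 in ZR75-1. On the other side lie S100A16, which did not pass (1545 to 1659 FPKM in MDA-MB-468 and 1580 to 1944 in ZR75-1, both with DMSO), and then S100A14. S100A13 and S100A7A did not pass, and S100A1, a muscle and heart member, passed at 0.78 ± 0.26 with DMSO (SE, adjusted p = 0.042, limma), in 10 of 21 alternatives as well. S100B, S100G, S100Z and S100A7L2 were at 0 or below 0.1 FPKM in every sample. Of the 11 other family genes, 7 were tested with DMSO, of which 3 were higher and 1 lower in MDA-MB-468, against 26.5% and 15.9% of all genes. RefSeq gene spans overlap for S100A5 with S100A4, S100A8 with S100A7A and S100A13 with S100A1, and S100A7 and S100A7A are close paralogs, so the split of reads within these pairs is uncertain.

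**Figure D3:**
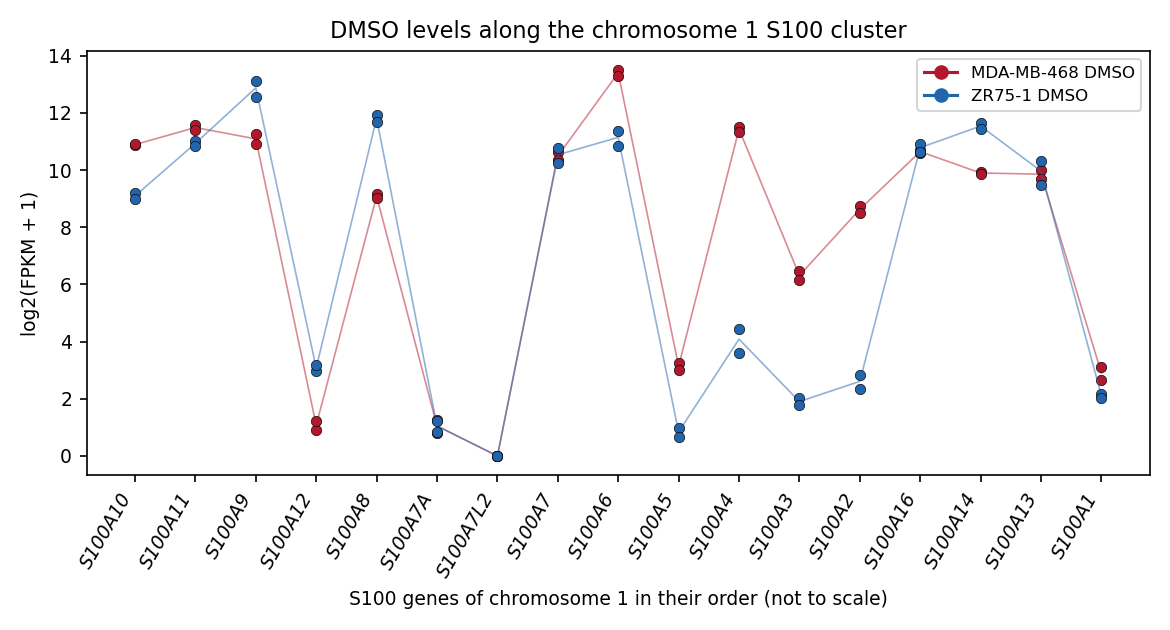
Log2(FPKM + 1) of the 17 chromosome 1 S100 genes in their RefSeq order (not to scale), 1 point per DMSO sample, with lines through the means of MDA-MB-468 (red) and ZR75-1 (blue). The red points lie above the blue ones throughout the run S100A6 to S100A2, and below them for S100A9, S100A12, S100A8 and S100A14.

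S100A8, S100A9 and S100A12 are also genes of myeloid cells, so leukocyte markers were read beside them. Of 10 such markers, 5 were tested, and 3 of these (CD14, CSF1R and CD68) were higher and 1 (ITGAM) lower in MDA-MB-468 with DMSO. Of all genes, 26.5% were higher and 15.9% lower there. With PKC412 the same 3 were higher, and ITGAM (-0.66) and LYZ (-0.56) were lower, against 37.0% and 21.6% of all genes. The summed FPKM of the 10 markers was 34.8 to 36.1 in MDA-MB-468 and 7.24 to 8.84 in ZR75-1 with DMSO, and 28.8 to 30.7 and 9.10 to 12.2 with PKC412. The sum was lower in ZR75-1, the line with more S100A8 and S100A9. Among the markers too low to be tested, PTPRC, MPO, CD3E and ELANE stayed at or below 0.0651, 0.0102, 0.0512 and 0.108 FPKM in every sample. A part of such cells in the S100 values was not tested.

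With PKC412 in MDA-MB-468, no member passed the test, and 1.26% of all genes tested did, 0.691% as higher and 0.566% as lower. All 10 values were below 0 on the log2 scale, with a median of -0.57 against 0.11 over all genes tested, and 6 members (S100A2, S100A7, S100A8, S100A10, S100A11 and S100A14) had an unadjusted p under 0.05, as did 2635 of the 16071 genes. The PKC412 samples were all below both DMSO samples for 9 of the 10 members, the exception being S100P, and 16.3% of all genes tested had that order. No member had the opposite order, which 39.6% of all genes had. S100A10 had the smallest p, at -0.62 ± 0.17 (SE, adjusted p = 0.17, limma), and S100A4 the largest difference, at -0.71 ± 0.34 (SE, adjusted p = 0.32, limma). S100A6 was at -0.69, S100A2 at -0.68, S100A7 at -0.61, S100A8 at -0.54, S100A9 at -0.51, S100A14 at -0.42 and S100A11 at -0.41. The 7 other family genes tested had values below 0 as well, and none passed.

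In ZR75-1, again no member passed, against 0.946% of all genes tested, 0.747% as higher and 0.199% as lower. The members' median was -0.50 against 0.07 over all genes tested, and 9 of the 10 values were below 0. S100A4 was at -0.77, S100A7 at -0.73, S100A10 at -0.61, S100A6 at -0.57, S100A8 at -0.51, S100A2 at -0.48, S100A9 at -0.46, S100A11 at -0.34 and S100A14 at -0.25. For 5 members (S100A7, S100A8, S100A10, S100A11 and S100A14) all PKC412 samples lay below both DMSO samples, an order seen in 6.98% of all genes. Of these, S100A10 had the smallest p (adjusted p = 0.24, limma).

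**Figure D4:**
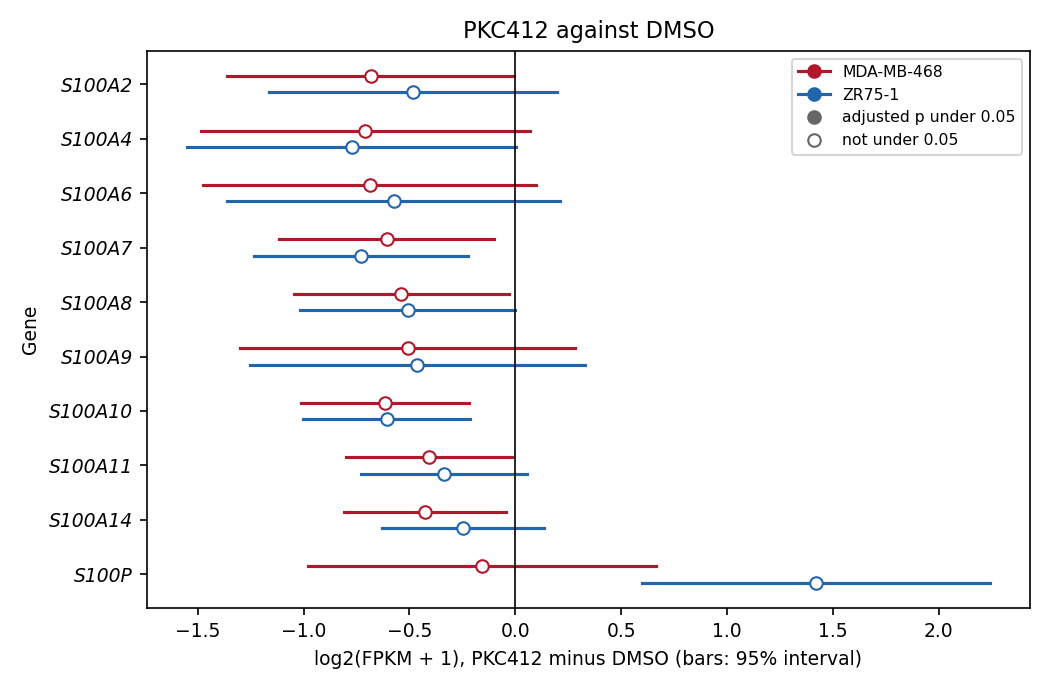
Log2(FPKM + 1) difference between PKC412 and DMSO for each S100 gene in MDA-MB-468 (red) and ZR75-1 (blue), with 95% intervals; open points have an adjusted p not under 0.05. Values lie between -0.77 and -0.16 except S100P in ZR75-1 at 1.42, whose interval runs from 0.60 to 2.24.

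Base composition and transcript length moved with these values. The members' transcripts are short, 479 to 1279 nt against a median of 3059 nt over genes tested (the longest coding transcript of each gene in GENCODE), with a GC content of 49.1% to 60.2% against a median of 49.9%. Deviations of genes from their line's mean rose with GC content by 0.35 and 0.04 log2 per 10 percentage points in MDA-MB-468 with DMSO and changed by -0.25, -0.03 and -0.10 with PKC412. In ZR75-1 the slopes were 0.29 and -0.19 with DMSO and -0.11, 0.33 and -0.32 with PKC412, so that there the samples of a group differed from each other in sign. Per doubling of length, the slopes in MDA-MB-468 were -0.10 and -0.06 with DMSO and 0.14, -0.04 and 0.07 with PKC412. In ZR75-1 they were -0.12 and -0.01 with DMSO and -0.02, -0.05 and 0.19 with PKC412. As the GC slopes in MDA-MB-468 differed in sign between treatments, adjusting each sample could also remove part of a drug effect, which was not tested. With FPKM adjusted for GC content and length in each sample, the values in MDA-MB-468 stayed below 0 but became smaller, -0.45 for S100A2, -0.38 for S100A10, -0.34 for S100A4, -0.33 for S100A7, -0.27 for S100A14, -0.25 for S100A8, -0.14 for S100A6, -0.06 for S100P, -0.05 for S100A9 and -0.004 for S100A11. In ZR75-1 the 9 values below 0 also became smaller, -0.57 for S100A4, -0.54 for S100A10, -0.49 for S100A7, -0.41 for S100A2, -0.28 for S100A8, -0.28 for S100A6, -0.21 for S100A14, -0.21 for S100A9 and -0.10 for S100A11. No member passed in either line with these values.

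S100P in ZR75-1 stood apart from the others. Its FPKM there was 511 and 354 with DMSO and 1061, 1767 and 787 with PKC412, so each PKC412 sample was above both DMSO samples, an order that 14.8% of all genes tested had. In MDA-MB-468 it was 848 and 743 with DMSO and 567, 952 and 671 with PKC412, and the groups overlapped. The log2 difference in ZR75-1 was 1.42 ± 0.36 (SE, unadjusted p = 0.0040 in limma), a ratio of means of 2.79, but it did not pass over all genes (adjusted p = 0.18, limma). Over all alternatives it ranged from 1.10 to 1.68, and it passed in 1 of them, the rescaling of samples to an equal FPKM sum (1.62, adjusted p = 0.044). With values adjusted for GC content and length it was 1.43 (adjusted p = 0.065). In MDA-MB-468 the difference was -0.16 (95% interval from -0.98 to 0.67), which turned to 0.04 after rescaling to an equal FPKM sum and to 0.009 without MDA-MB-468 PKC412 replicate 1. The difference between the lines in the PKC412 effect was -1.57 ± 0.50 for S100P (SE, adjusted p = 0.48, limma) and passed for no member, against 0.268% of all genes tested, 0.0684% as higher and 0.199% as lower in MDA-MB-468. At an unadjusted p under 0.05 it passed for S100P alone among the members, and for 1133 of all genes. For the other 9 members the values lay between -0.20 and 0.12.

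Ratios within a sample do not depend on how its FPKM was scaled, but they depend on both genes. S100P relative to the geometric mean of the other 9 members was 0.635 and 0.676 in the ZR75-1 DMSO samples and 2.26 to 3.29 in the PKC412 samples. In MDA-MB-468 it was 0.473 and 0.477 with DMSO and 0.602 to 0.709 with PKC412. The groups were apart in both lines, also in MDA-MB-468, where the S100P levels themselves overlapped. The 9 members in the denominator had values below 0 with PKC412 in both lines, which by itself raises this ratio, so the step from a mean of 0.656 to 2.61 in ZR75-1 is wider than that of S100P alone. An exact two-sided permutation test of 2 against 3 samples cannot give a p below 0.1. S100A10 relative to ANXA2, the gene of its annexin partner, was 1.55 to 1.64 with DMSO and 1.11 to 1.34 with PKC412 in MDA-MB-468, and 1.28 to 1.43 and 0.96 to 1.18 in ZR75-1. With values adjusted for GC content and length the groups overlapped in both lines, at 1.14 to 1.52 against 1.34 to 1.45 and at 1.08 to 1.49 against 0.73 to 1.63. Between the lines this ratio did not pass with both treatments pooled (exact permutation test over samples, two-sided, p = 0.20, adjusted p = 0.20 over 2 ratios tested). That test counts the shift between treatments as spread. With DMSO alone the lines were apart in the deposited values but overlapped in the adjusted ones. With PKC412 they overlapped in both.

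**Figure D5:**
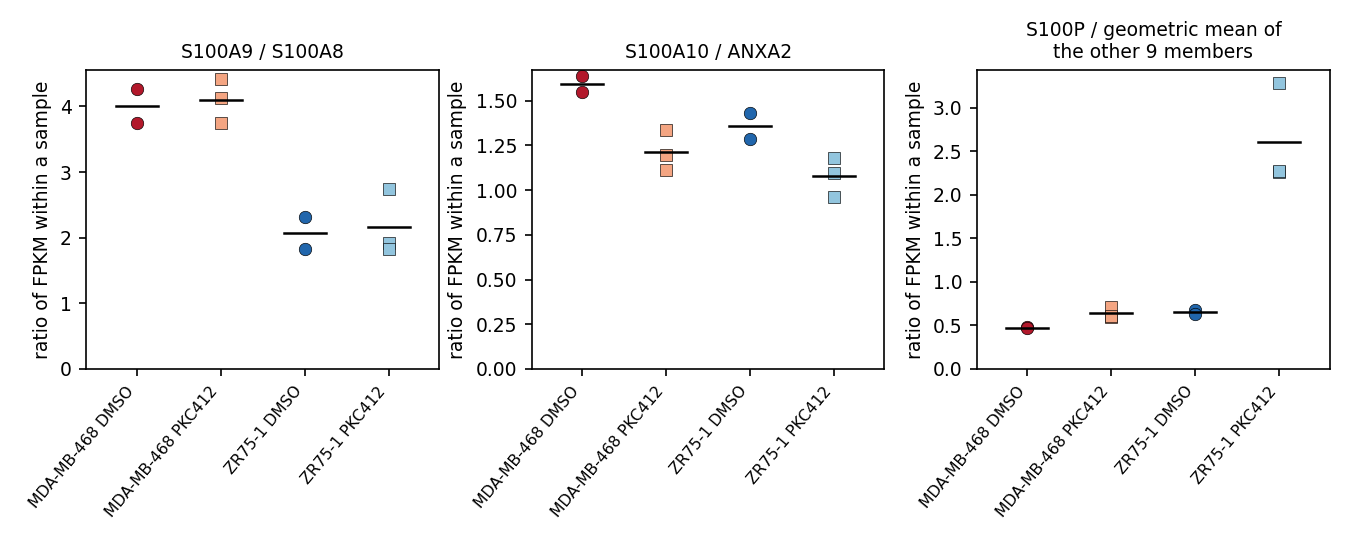
Ratios of FPKM within each sample by group, with bars at the group means: S100A9 to S100A8 (left), S100A10 to ANXA2 (middle) and S100P to the geometric mean of the other 9 members (right). The left panel separates the lines (3.74 to 4.42 against 1.83 to 2.74), and in the right panel the 3 ZR75-1 PKC412 samples lie between 2.26 and 3.29, above all other samples.

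The fibroblast marker COL1A1, the only 1 of 4 such markers that could be tested, also moved in ZR75-1 with PKC412, from 2.25 and 2.75 FPKM to between 6.65 and 11.1 (log2 difference 1.49 ± 0.20, SE, adjusted p = 0.018, limma), a call kept in 11 of 21 alternatives. The summed FPKM of the 4 markers was 2.25 to 2.75 with DMSO and 6.68 to 11.1 with PKC412 in ZR75-1, and 0.90 to 0.96 and 1.40 to 1.54 in MDA-MB-468. In ZR75-1 nearly all of this sum was COL1A1. Of the 4 markers, 3 were at 0 there in every DMSO sample and 2 in every PKC412 sample. A part of fibroblasts in the S100P values was not tested.

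Among 17 tested genes of S100 partners and receptors, 9 were higher and 2 lower in MDA-MB-468 with DMSO, against 26.5% and 15.9% of all genes. ANXA1, the annexin bound by S100A11, differed most (4.63 ± 0.51 log2, SE, adjusted p = 0.00017, limma), followed by PLAU, the urokinase that cuts plasminogen (2.91), ANXA6 (-2.63) and PLAUR, the urokinase receptor (1.86). ANXA2 differed by 1.57 and so went the same way as S100A10. The receptor gene TLR4 was at or below 0.0348 FPKM in every sample, and AGER, which encodes RAGE, had 0.378 to 0.825 FPKM in MDA-MB-468 and 0.0826 to 0.132 in ZR75-1. With PKC412, PLAT, the tissue plasminogen activator, rose in MDA-MB-468 by 0.30 ± 0.05 log2 (SE, adjusted p = 0.029, limma) at levels of 0.199 to 0.539 FPKM, a call kept in 7 of 20 alternatives, and none of the list passed in ZR75-1.

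The cornified envelope genes, neighbours of the S100 cluster, split between the lines. Of 11 tested, 4 were higher and 4 lower in MDA-MB-468 with DMSO, against 26.5% and 15.9% of all genes. Among those that passed were IVL (involucrin, 2.72), SPRR1B (2.05), TCHH (trichohyalin, 1.51) and SPRR2E (-1.28). IVL fell with PKC412 in MDA-MB-468 from 10.3 and 10.4 FPKM to between 3.79 and 4.32, by 1.16 log2 (SE 0.12, adjusted p = 0.0056, limma), and it was the only gene of this list that passed there. The call held in 19 of 21 alternatives, the exceptions being those with the replicate block. None passed in ZR75-1.

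Of 14 tested epithelial antimicrobial and alarm genes, 2 were higher and 9 lower in MDA-MB-468 with DMSO, with a median log2 difference of -1.70, where 26.5% of all genes were higher and 15.9% lower with a median of 0.11. The acute-phase genes SAA2 (-5.97) and SAA1 (-5.06) and the defensin gene DEFB4A (-5.68) were higher in ZR75-1, and the defensin gene DEFB1 was higher in MDA-MB-468 (6.64). With PKC412 in MDA-MB-468, TNFAIP3, an inhibitor of NF-kappaB signalling, rose by 2.15 (adjusted p = 0.029, limma) and the chemokine gene CXCL1 by 1.42 (adjusted p = 0.036, limma). In ZR75-1, CXCL2 rose by 1.31 (adjusted p = 0.048, limma) and IL6 by 0.84 (adjusted p = 0.0065, limma), and none of the list passed as lower in either line. IL6 passed in 16 of 20 alternatives, CXCL1 in 12, TNFAIP3 in 8 and CXCL2 in 7 of 21.

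Of 11 tested genes for transcription factors known from S100 promoters, 4 were higher and 2 lower in MDA-MB-468 with DMSO. These counts are near the shares over all genes, 26.5% higher and 15.9% lower. FOSL1, an AP-1 subunit, was higher (2.44), as was CEBPB (1.58), and CEBPD (-1.75) and KLF4 (-1.41) were lower, KLF4 in 10 of 21 alternatives. FOSL1 fell with PKC412 in both lines, from 22.5 and 23.1 FPKM to between 5.09 and 5.52 in MDA-MB-468 (by 1.93 log2, SE 0.13, adjusted p = 0.00061, limma) and from 3.19 and 3.56 to between 1.22 and 1.48 in ZR75-1 (by 0.89 log2, SE 0.13, adjusted p = 0.022, limma). It was the only gene of this list that passed with PKC412 in either line, in 19 of 21 alternatives in MDA-MB-468 and in 8 of 21 in ZR75-1.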

How the data were processed

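RNA sequencing values of 10 samples were used. The authors deposited 1 table of FPKM per sample, made from TruSeq libraries read on a HiSeq2000, and the submitters' processing notes name CASAVA 1.82, TopHat2 and hg19. The counting tool and its use of strand are not given in the sources used here, and the files hold no counts, so the depth and the counting error are unknown. FPKM depends on the summed fragments of a sample and on transcript length, which matters for short genes such as these.

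Groups were taken from the labels. The 16071 of 23426 genes whose mean FPKM exceeded 0.1 in 1 group or more were fitted together on log2(FPKM + 1), which understates changes of low genes, with limma 3.58.1 in R 4.3.3 (a mean per group, eBayes with trend, Benjamini-Hochberg adjustment over all genes tested, two-sided). Results with an adjusted p under 0.05 were called. The 5 comparisons were the lines with DMSO, the lines with PKC412, PKC412 against DMSO in each line, and the difference of the last 2. The fit was also run on simulated data. Noise there was independent between genes, so deviations shared by many genes of a sample, such as those with GC content, were not covered. Within-sample ratios were compared between the lines by exact permutation tests with both treatments pooled.

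Named genes were all members, up to 4 genes of each list with the largest called difference between the lines and up to 4 with the largest called PKC412 change, S100 genes above 1 FPKM, and the 3 genes most correlated with a member (given for S100A2, S100A4 and the closest gene of S100A8). ANXA2, AGER, TLR4, the cell type markers (CDH3, COL1A1 and the leukocyte genes) and S100 genes not above 1 FPKM were named outside this rule. The members and lists were chosen with earlier results of these data known. The labels and methods give 1 µM PKC412, although a lower dose appears elsewhere in the study. Alternatives were other pseudocounts, filters, scalings and fits, leaving out each sample, a replicate block, and, chosen after seeing the data, FPKM adjusted for GC content and length (GENCODE release 29, polynomials of degree 3 fitted within each line, 88.1% of genes and 10 of 10 members with a value).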

Additional observations from a re-analysis of the deposited data

How the results depend on the processing

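Of the 10 members, 7 kept their difference between the lines past the threshold in all 21 alternatives, with DMSO and with PKC412: S100A2, S100A4, S100A6, S100A8, S100A9, S100A10 and S100A14. The adjustment for GC content and length was fitted within each line and leaves the line's mean log2 level unchanged. It therefore could not remove an effect of GC content or length that differs between the lines. The number of members passing ranged from 7 to 9 with DMSO and from 7 to 8 with PKC412 when single samples were left out, and stayed at 0 for the PKC412 effects and their difference. Where this left 1 DMSO sample, that sample was assumed to vary like the other groups. Before any sample was left out, 6822 of all genes tested (42.4%) passed between the lines with DMSO and 9421 (58.6%) with PKC412. When a PKC412 sample was left out, these counts were 6224 to 7468 with DMSO and 7923 to 9884 with PKC412. How many of all genes passed in all 21 alternatives was not counted. The persistence of the 7 members therefore has no share over all genes beside it. Rescaling samples to an equal FPKM sum let 1 member, S100P, pass for PKC412 in ZR75-1 and also between the lines with DMSO, and moved the median PKC412 difference of all genes by 0.12 in MDA-MB-468 and by 0.11 in ZR75-1. The FPKM sums in MDA-MB-468 were 722642 and 765859 with DMSO and 599228 to 700688 with PKC412. In ZR75-1 they were 752338 and 835069 with DMSO and 610275 to 746154 with PKC412. Setting the sums equal therefore raises PKC412 values relative to DMSO values in both lines. Why the sums differed was not tested.

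Directions turned only where values were near 0. For S100A7 between the lines, an equal FPKM sum gave 0.069 with DMSO and median ratios gave -0.094 with PKC412, and leaving out single samples gave -0.30 to 0.25 with DMSO and -0.025 to 0.23 with PKC412. For S100P with PKC412 in MDA-MB-468 an equal FPKM sum gave 0.045 and leaving out single samples -0.36 to 0.0093. For the difference of the PKC412 effect between the lines, a pseudocount of 5 gave -0.12 for S100A4. Adjustment for GC content and length gave 0.14 for S100A6, 0.035 for S100A8, 0.16 for S100A9, 0.16 for S100A10 and 0.10 for S100A11. Leaving out single samples gave -0.48 to 0.058 for S100A2, -0.36 to 0.49 for S100A4, -0.38 to 0.15 for S100A6, -0.15 to 0.40 for S100A7, -0.19 to 0.10 for S100A8, -0.32 to 0.26 for S100A9, -0.14 to 0.12 for S100A10 and -0.17 to 0.013 for S100A11.

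Whether the replicate numbers pair the samples is not known. Deviations of same-numbered DMSO and PKC412 samples correlated at -0.69 and -0.61 in MDA-MB-468 and at 0.12 and -0.63 in ZR75-1 across 7685 genes. The 2 DMSO samples of a line deviate from their mean as exact mirror images, so these correlations cannot decide it. With the replicate block the difference of the PKC412 effect was -0.19 for S100A4 and 0.0085 for S100A10, and with the block and the adjustment for GC content and length it was 0.14 for S100A6, 0.036 for S100A8, 0.080 for S100A9, 0.28 for S100A10 and 0.16 for S100A11. The block took the count of all genes passing from 202 to 0 for PKC412 in MDA-MB-468, from 152 to 0 in ZR75-1 and from 43 to 0 for their difference, where residual degrees of freedom are also fewer, and ended the S100A11 calls between the lines (adjusted p = 0.093 with DMSO and 0.059 with PKC412). Under the adjustment for GC content and length those counts were 579, 452 and 210, and with the samples of 1 line alone 81 in MDA-MB-468 and 12 in ZR75-1. Leaving out single samples gave 65 to 324, 59 to 183 and 16 to 64. The S100A11 call with DMSO also ended without a filter on low FPKM (adjusted p = 0.062) and with the samples of a treatment fitted alone, which ended the PKC412 call too (adjusted p = 0.075 and 0.054).

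With no read counts, the depth behind each value is unknown and precision rests on the spread between 2 DMSO and 3 PKC412 samples per line. No limit of detection was computed for the PKC412 comparisons.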
